A study of Mus musculus with 8 samples.

Results

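Complement components and receptors were followed in 8 bulk RNA-Seq libraries of mouse blood monocytes (MCs). The 9 genes were found by symbol among the 16486 entries of the deposited expression table: C1qa, C1qb and C1qc, which encode the chains of C1q, C3, Cfb (factor B), Cfp (properdin), and the receptor genes C3ar1, C5ar1 and C5ar2. All 9 had a value in every library. The MCs were sorted from peripheral blood of male mice, 20 to 22 weeks old and kept on chow, as CD11b+ Ly6G- cells with high or low surface Ly6C (Ly6Chigh and Ly6Clow), with 100000 cells for each subset. Control (CT) mice were wild type C57/BL6. In T1DM mice, also C57/BL6, diabetes was brought about with streptozotocin (STZ), which kills pancreatic beta cells, by 5 daily intraperitoneal doses of 50 mg/kg that began at 8 weeks of age. The T2DM model was the db/db mouse, homozygous for a leptin receptor mutation. Material from 5 mice was pooled in each group, so no value belongs to a single animal. For CT mice 2 libraries of each subset were analysed, and for T1DM and T2DM mice 1 library of each subset. The study describes further diabetic libraries, which were not analysed here.

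Complement is a cascade of plasma proteases that meets at C3. C1q starts the classical pathway when it binds antibody complexes or dying cells, lectins and ficolins start the lectin pathway on sugars, and factor B with properdin builds and holds the alternative pathway convertase, which cleaves more C3. The small fragments C3a and C5a act on C3ar1, C5ar1 and C5ar2 on myeloid cells, and membrane and soluble regulators such as Cd55 limit the cascade. The liver makes most plasma complement, while MCs and macrophages make C1q, C3, factor B and properdin locally.

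Values below are log2 normalized expression as deposited, called log2 levels. Their scale per gene length was not established, so the level of a gene is compared between libraries and not with that of another gene. Sums over marker lists, and the gene named as highest in a list, use the deposited values converted to the linear scale and carry the same limit. A gene was called when it passed both limits in limma, a Benjamini-Hochberg adjusted p-value under 0.01 and a change of more than 2-fold (log2FC above 1 or below -1). The RNA of a group was sequenced in duplicate from a pool, so p-values measure the spread between libraries, which may be technical. CT and diabetic libraries were read on different Illumina instruments, and wherever these libraries are compared the instrument and the diabetes cannot be told apart.

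The labels were checked first. The Y-linked genes Ddx3y, Eif2s3y and Kdm5d, chosen after their values were seen, were lower in every CT library than in any diabetic library although all mice are labelled male, with log2 levels of Ddx3y of 2.41 to 3.64 in CT and 5.40 to 6.30 in diabetic libraries. The part of this difference in the results was not tested. Lepr, the gene mutated in db/db mice, had log2 levels from -2.01 to 4.23, and since that mutation alters splicing its level does not check the genotype. Ly6c2, which encodes the sorted antigen Ly6C, had log2 levels of 8.56 to 8.72 in the 4 Ly6Chigh libraries and 2.69 to 4.07 in the 4 Ly6Clow libraries. Of 10 classical monocyte markers, 9 were called higher in Ly6Chigh MCs over mouse groups, among them Ccr2, Vcan and F13a1, and of 12 nonclassical markers 7 were called lower, among them Cd300e, Treml4 and Spn. Nr4a1, Cx3cr1, Itgal, Ace and Pou2f2, also in the nonclassical list, were not called. In CT MCs 3 of the 12, Cx3cr1, Itgal and Nr4a1, had a positive log2FC, and 1, Cx3cr1, had one over mouse groups. Mean log2 levels of Cx3cr1 were 8.60 in CT Ly6Chigh and 7.77 in CT Ly6Clow MCs. Ly6Clow libraries also carried lymphocyte RNA. All 12 B cell markers and all 9 NK cell markers were called lower in Ly6Chigh MCs, and the B cell list, summed after conversion to the linear scale, came to 328 to 718 in the Ly6Chigh and 5606 to 6700 in the Ly6Clow libraries, with Ighm the gene with the highest value in each. The NK cell list summed to between 30.6 and 138 in Ly6Chigh libraries and to between 187 and 969 in Ly6Clow libraries, with Gzma the highest. The part of these cells in the subset differences below was not tested, and in bulk samples fewer cells of a type and less RNA per cell cannot be told apart.

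**Figure D1:**
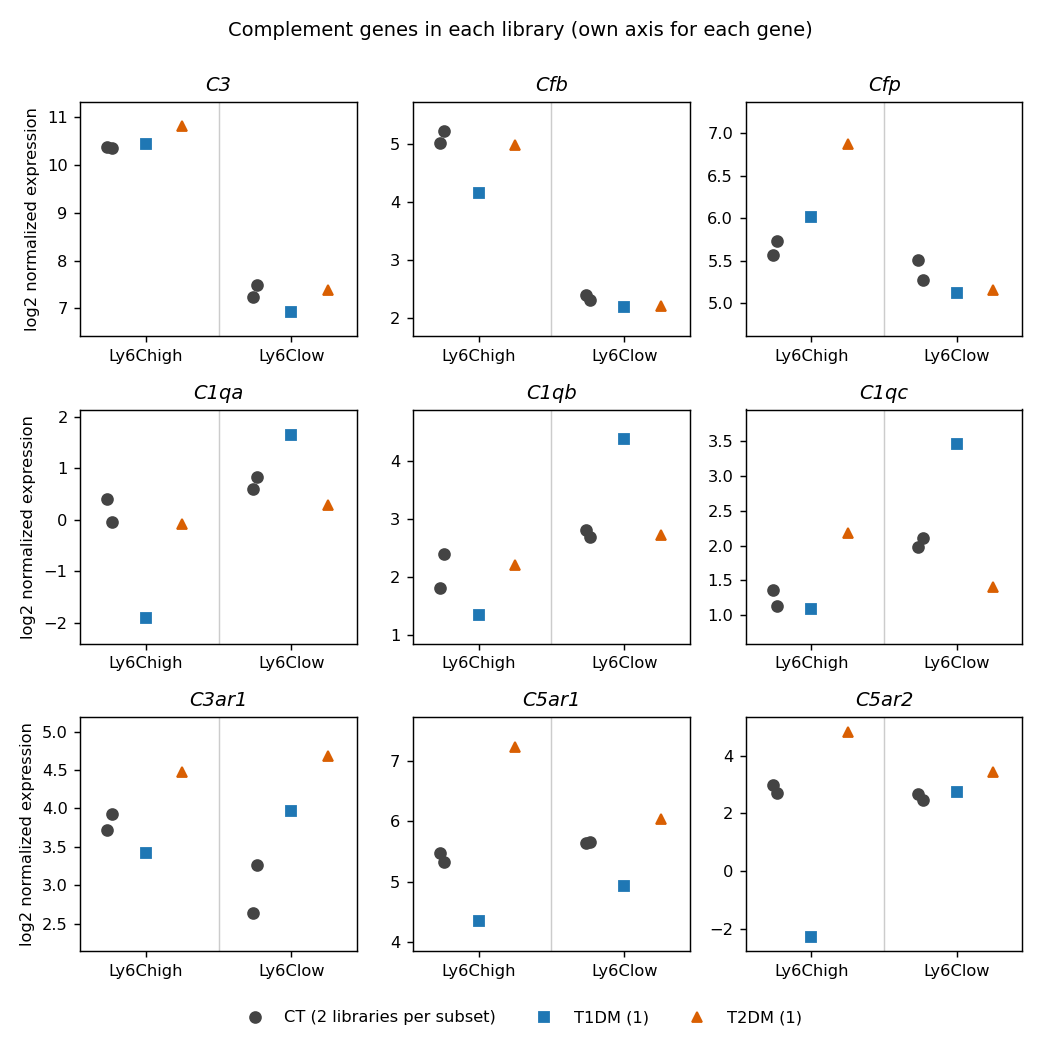
Log2 normalized expression of the 9 complement genes in each library, with Ly6Chigh libraries on the left and Ly6Clow libraries on the right of each panel, and a separate vertical axis for each gene. Circles are the 2 CT libraries of a subset, squares the T1DM library and triangles the T2DM library. C3 and Cfb lie apart between the subsets in every mouse group, and C5ar1 is lowest in T1DM and highest in T2DM within each subset.

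C3 and Cfb were the members called between the MC subsets. C3, the protein at which all pathways meet, was about 8-fold and Cfb, the protease subunit of the alternative pathway convertase, about 7-fold higher in CT Ly6Chigh than in CT Ly6Clow MCs. The log2 levels of C3 were 10.37 and 10.36 in the CT Ly6Chigh libraries, 7.23 and 7.48 in the CT Ly6Clow libraries, 10.44 and 6.92 in T1DM Ly6Chigh and Ly6Clow MCs, and 10.83 and 7.39 in T2DM Ly6Chigh and Ly6Clow MCs. Every Ly6Chigh library was thus above every Ly6Clow library. In CT MCs the log2FC of C3 was 3.01 (SE 0.10, 95% interval 2.73 to 3.29, 2 libraries against 2, limma adjusted p = 0.0038). Over all mouse groups, with the mouse group as covariate, it was 3.24 (SE 0.11, 95% interval 2.99 to 3.50, 4 libraries against 4, limma adjusted p = 6.8e-07).

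Cfb had log2 levels of 5.02 and 5.22 in the CT Ly6Chigh libraries and 2.39 and 2.31 in the CT Ly6Clow libraries. In T1DM mice the levels were 4.14 in Ly6Chigh and 2.19 in Ly6Clow MCs, and in T2DM mice 4.98 and 2.20. The subsets did not overlap, and the T1DM Ly6Chigh library was the lowest of the 4 Ly6Chigh libraries. The log2FC was 2.77 in CT MCs (SE 0.17, 95% interval 2.29 to 3.25, limma adjusted p = 0.0065) and 2.57 over mouse groups (SE 0.21, 95% interval 2.09 to 3.04, limma adjusted p = 3.8e-05). Cfb lies at chr17:34856374-34862518 on the minus strand of mm10, next to C2, and shares 75.5% of its 31-base sequences with Gm20547, an annotated gene that overlaps both and was not analysed here, so its values are uncertain where reads could be split between them.

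These 2 calls stand against a background in which 2.10% of all genes were called higher and 1.43% lower in CT Ly6Chigh MCs, and 5.37% higher and 6.76% lower over mouse groups. No member was called lower in either test. The median log2FC of the 9 members was 0.26 in CT MCs and 0.03 over mouse groups, beside -0.09 and -0.08 for all genes. Leaving out any 1 of the 4 CT libraries, or the variance trend (adjusted p 0.017 for both), ended all calls in the CT test, those of C3 and Cfb with them. Without 1 library C3 stayed between 2.89 and 3.13 and Cfb between 2.67 and 2.87. Over mouse groups both were called whichever library was left out, and leaving out all 4 CT libraries, which leaves 1 residual degree of freedom, left no called gene in the table, with C3 at 3.48 (adjusted p = 0.043) and Cfb at 2.36 (adjusted p = 0.062).

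The C3 gene lies at chr17:57203970-57228136 on the minus strand of mm10 and shares no 31-base sequence with another gene. Its promoter is shown because C3 is the member with the widest difference between the subsets. The sequence runs from 250 bases before to 50 bases after the RefSeq start (GRCm38.p6, chr17:57228087-57228386, minus strand). The capitals mark a match to TTGCNNAA, the core letters of C/EBP sites.
C3 promoter: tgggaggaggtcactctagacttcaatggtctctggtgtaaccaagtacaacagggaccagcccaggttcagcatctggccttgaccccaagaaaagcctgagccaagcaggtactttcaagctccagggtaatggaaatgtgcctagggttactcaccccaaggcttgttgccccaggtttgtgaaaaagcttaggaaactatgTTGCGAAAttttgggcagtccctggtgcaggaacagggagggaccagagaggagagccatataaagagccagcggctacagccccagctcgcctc
The match begins at position -45 from the start and is the 1 match to these letters in this window. TTGCNNAA is found on either strand in 10.8% of the 32851 RefSeq promoters of this length, and was added to the motifs searched after the sequences had been seen. An NF-kB type motif also matches the C3 promoter but is found in 50.8% of all promoters. Cfb had no promoter entry.

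**Figure D2:**
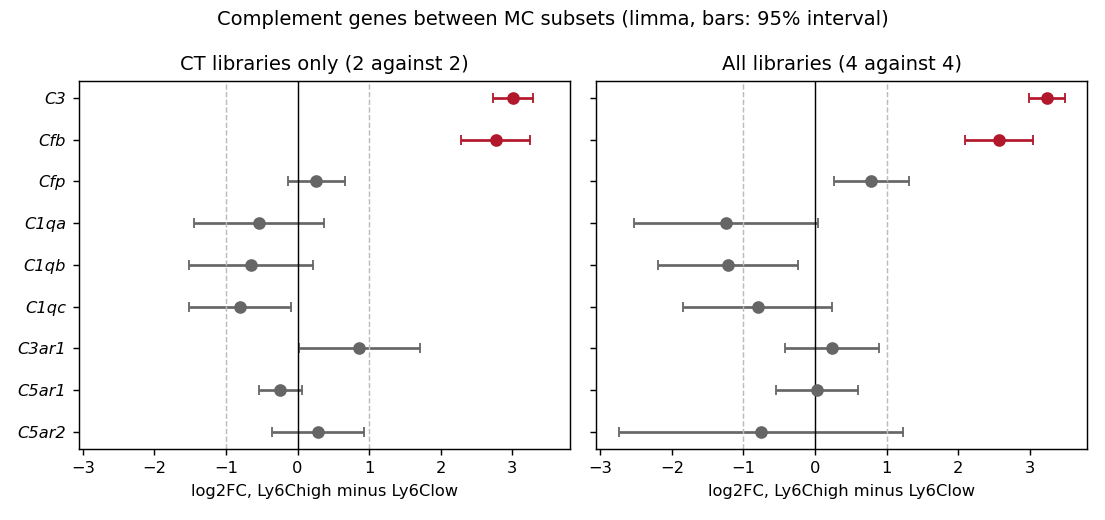
Log2FC of Ly6Chigh against Ly6Clow MCs for the 9 complement genes, from the 4 CT libraries (left) and from all 8 libraries with mouse group as covariate (right), with limma 95% intervals as bars and dashed lines at -1 and 1. Red points are the called genes, C3 at 3.01 and 3.24 and Cfb at 2.77 and 2.57, and grey points were not called.

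Cfp, whose product properdin stabilises the alternative pathway convertase, had close levels in both CT subsets. Its log2 levels were 5.57 and 5.73 in CT Ly6Chigh and 5.51 and 5.27 in CT Ly6Clow MCs, and the log2FC of 0.26 did not pass the test (SE 0.14, 95% interval -0.13 to 0.66, limma adjusted p = 0.25). Without 1 CT library it ran from 0.14 to 0.38. Cfp was at 6.02 in T1DM and 6.87 in T2DM Ly6Chigh MCs, against 5.11 and 5.16 in the matching Ly6Clow MCs. All 4 Ly6Chigh libraries were above all 4 Ly6Clow libraries, but the log2FC over mouse groups, 0.78, was under the 2-fold limit (SE 0.23, 95% interval 0.26 to 1.31, limma adjusted p = 0.029) and fell to 0.48 without either T2DM library. Over all alternatives this log2FC ran from 0.48 to 1.31, and the upper end is past the 2-fold limit. C3, Cfb and Cfp were the members with this full separation, which 16.4% of all genes showed, and C1qb alone showed the reverse separation, which 16.3% of all genes showed.

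The C1q genes pointed the other way without a call. Their products form the recognition molecule of the classical pathway, and in tissue they are made mainly by macrophages. C1qb had log2 levels of 1.80 and 2.39 in CT Ly6Chigh and 2.81 and 2.68 in CT Ly6Clow MCs, 1.35 and 4.38 in T1DM Ly6Chigh and Ly6Clow MCs, and 2.20 and 2.71 in T2DM Ly6Chigh and Ly6Clow MCs. The Ly6Clow value was the higher in each mouse group, and the T1DM pair lay furthest apart. The log2FC of C1qb was -0.65 in CT MCs (SE 0.30, 95% interval -1.52 to 0.22, limma adjusted p = 0.21) and -1.21 over mouse groups (SE 0.43, 95% interval -2.19 to -0.23, limma adjusted p = 0.060). In CT MCs it ran from -0.94 to -0.35 when 1 library was left out.

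C1qa was at 0.40 and -0.05 in CT Ly6Chigh, 0.60 and 0.83 in CT Ly6Clow, -1.91 and 1.64 in T1DM Ly6Chigh and Ly6Clow, and -0.08 and 0.28 in T2DM Ly6Chigh and Ly6Clow MCs. C1qc was at 1.36 and 1.13 in CT Ly6Chigh, 1.98 and 2.11 in CT Ly6Clow, 1.09 and 3.46 in T1DM Ly6Chigh and Ly6Clow, and 2.19 and 1.41 in T2DM Ly6Chigh and Ly6Clow MCs. In CT and T1DM mice both genes were higher in the Ly6Clow libraries, and in T2DM mice C1qc was the higher in the Ly6Chigh library. Over mouse groups the log2FC was -1.25 for C1qa (SE 0.56, limma adjusted p = 0.12) and -0.80 for C1qc (SE 0.46, limma adjusted p = 0.22). With log2(value + 1) these were -0.62 and -0.64, and with quantile normalization -0.59 and -0.38. Without either T1DM library C1qa was at -0.48, C1qb at -0.60 and C1qc at -0.28, and C1qc was at -1.33 without either T2DM library. Among genes with a mean log2 level under 2, the differences between the 2 CT libraries of a subset had an SD of 1.11 in Ly6Chigh and 0.979 in Ly6Clow MCs, against 0.264 and 0.272 among genes with a mean of at least 5.

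The T1DM Ly6Clow library had the highest value of C1qa, C1qb and C1qc alike. Against the mean of the CT Ly6Clow libraries the log2 difference was 0.92 for C1qa, 1.64 for C1qb and 1.41 for C1qc, which is 1.90-fold, 3.11-fold and 2.66-fold, and each value was above both CT libraries. Of the 12 macrophage markers 10 were measured. The list summed on the linear scale to 373 and 331 in CT Ly6Chigh, 167 and 203 in CT Ly6Clow, 366 and 228 in T1DM Ly6Chigh and Ly6Clow, and 301 and 255 in T2DM Ly6Chigh and Ly6Clow MCs, with Adgre1 the gene with the highest value in each, and Axl and Siglec1 were called higher in Ly6Chigh MCs over mouse groups. Marco and Gas6 were not analysed here. In T1DM Ly6Clow MCs Timd4, Cd5l and Cd163 had their highest log2 levels of any library, 2.28, 1.47 and 3.80, and Mertk, Vcam1 and Folr2, at 1.62, 1.73 and -0.23, were below their CT Ly6Clow means of 1.79, 1.94 and 0.88. The remaining markers, Mrc1, Axl, Siglec1 and Adgre1, at 5.59, 3.18, 2.73 and 7.08, were above their CT Ly6Clow means of 4.53, 2.64, 2.19 and 7.01. The part of macrophage RNA in the C1q values was not tested.

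The 3 C1q genes lie side by side on the minus strand of chromosome 4, C1qb at chr4:136880129-136886187, C1qc at chr4:136889804-136893065 and C1qa at chr4:136895917-136898803 in mm10, and share no 31-base sequence with another gene. The promoters of C1qb and C1qc are shown because these neighbours were both highest in the T1DM Ly6Clow library. They cover chr4:136886151-136886450 and chr4:136892865-136893164 (RefSeq, GRCm38.p6, minus strand), from 250 bases before to 50 bases after the start. The capitals mark GAGGAA, the core letters of PU.1 type sites, or its reverse complement TTCCTC.
C1qb promoter: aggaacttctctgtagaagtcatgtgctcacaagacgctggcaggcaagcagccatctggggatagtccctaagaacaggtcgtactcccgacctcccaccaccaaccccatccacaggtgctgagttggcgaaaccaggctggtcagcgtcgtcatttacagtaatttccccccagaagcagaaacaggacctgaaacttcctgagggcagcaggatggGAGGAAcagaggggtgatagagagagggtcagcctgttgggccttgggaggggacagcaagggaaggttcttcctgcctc
C1qc promoter: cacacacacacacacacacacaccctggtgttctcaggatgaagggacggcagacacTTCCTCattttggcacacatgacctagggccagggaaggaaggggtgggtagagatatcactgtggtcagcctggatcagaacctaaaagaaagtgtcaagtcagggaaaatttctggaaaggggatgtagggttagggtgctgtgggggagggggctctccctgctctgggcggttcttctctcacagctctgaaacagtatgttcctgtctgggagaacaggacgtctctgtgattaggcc
The match begins at position -30 from the start in C1qb and at position -193, on the opposite strand, in C1qc. GAGGAA is found on either strand in 28.3% of all RefSeq promoters of this length, and a match is a description of the letters only. C1qa had no promoter entry.

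None of the receptors for C3a and C5a was called between the subsets or between the diabetic models, and C5ar1 came nearest to a call between the models. C5ar1, the main receptor for C5a on neutrophils and MCs, had log2 levels of 5.48 and 5.32 in CT Ly6Chigh MCs and 5.63 and 5.65 in CT Ly6Clow MCs. It was at 4.35 and 4.92 in T1DM Ly6Chigh and Ly6Clow MCs, and at 7.22 and 6.04 in T2DM Ly6Chigh and Ly6Clow MCs. Both T1DM libraries were below, and both T2DM libraries above, the CT libraries of their subset. For most genes the mean of the diabetic libraries lay close to the CT mean, so these 2 sides are not independent. The 2 libraries of a model are the Ly6Chigh and Ly6Clow MCs of the same pooled mice. P-values between the models therefore do not measure the spread between mice. T2DM and T1DM libraries came from the same sequencer, and over subsets C5ar1 was 3.98-fold higher in T2DM MCs (log2FC 1.99, SE 0.36, 95% interval 1.18 to 2.81, 2 libraries against 2, limma adjusted p = 0.028), which is past the 2-fold limit and not past the limit of 0.01. Without the T2DM Ly6Clow library the log2FC was 2.76 with a limma adjusted p of 0.0016, without the T2DM Ly6Chigh library it was 1.23 with an adjusted p of 0.064, and over all alternatives the adjusted p ran from 0.0016 to 0.47. Between the subsets the log2FC over mouse groups was 0.03 (SE 0.25, 95% interval -0.54 to 0.60, limma adjusted p = 0.94), and it was -0.35 without either T2DM library.

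C5ar2, a receptor that binds C5a without coupling to G proteins, was at 2.97 and 2.72 in CT Ly6Chigh, 2.67 and 2.45 in CT Ly6Clow, -2.26 and 2.74 in T1DM Ly6Chigh and Ly6Clow, and 4.82 and 3.43 in T2DM Ly6Chigh and Ly6Clow MCs. The T1DM Ly6Chigh library stood far below the other 7. In that library 2.28% of all genes had a lower value, and the level is within the range at which diabetic libraries repeat exactly the same lowest value for a gene (502 genes, 5th to 95th percentile -2.65 to -1.65), so it may hold few or no reads and its differences have no interpretable fold. The C1qa level of -1.91 in the same library is also within this range. In CT libraries the matching range of repeated lowest values was -2.42 to 0.46 (917 genes). Both CT Ly6Chigh values of C1qa, 0.40 and -0.05, lie in it, so these may also hold few or no reads. The log2FC of C5ar2 for T2DM against T1DM was 3.89 (SE 1.24, 95% interval 1.08 to 6.70, limma adjusted p = 0.19). It fell to 1.06 without the T1DM Ly6Chigh library, and rose to 6.71 without the T1DM Ly6Clow library, where the limma adjusted p was 0.0053 (0.0053 to 0.65 over all alternatives). Between the subsets, C5ar2 had a log2FC of -0.76 over mouse groups (SE 0.87, limma adjusted p = 0.55), which was 0.66 without either T1DM library.

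C3ar1, the receptor for C3a, had log2 levels of 3.71 and 3.92 in CT Ly6Chigh, 2.64 and 3.27 in CT Ly6Clow, 3.41 and 3.96 in T1DM Ly6Chigh and Ly6Clow, and 4.47 and 4.69 in T2DM Ly6Chigh and Ly6Clow MCs. The T2DM library was the highest of its subset in both cases. The log2FC for T2DM against T1DM was 0.89 (SE 0.41, 95% interval -0.04 to 1.82, limma adjusted p = 0.37), from 0.37 without the T1DM Ly6Chigh to 1.42 without the T1DM Ly6Clow library. The CT subsets differed by 0.86 (SE 0.29, 95% interval 0.02 to 1.71, limma adjusted p = 0.13), and by 0.55 to 1.18 when 1 CT library was left out. The log2FC over mouse groups was 0.24 (SE 0.29, limma adjusted p = 0.57), which was -0.38 without the CT libraries.

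C5ar2 and C5ar1 are neighbours on the minus strand of chromosome 7, at chr7:16234585-16244154 and chr7:16246743-16259540 in mm10, and both were highest in T2DM Ly6Chigh and lowest in T1DM Ly6Chigh MCs. Their RefSeq promoters are shown for this reason, at chr7:16259289-16259588 for C5ar1 and at chr7:16244105-16244404 for the upstream of the 2 start sites of C5ar2 (GRCm38.p6, minus strand). The capitals mark TTGCNNAA or its reverse complement.
C5ar1 promoter: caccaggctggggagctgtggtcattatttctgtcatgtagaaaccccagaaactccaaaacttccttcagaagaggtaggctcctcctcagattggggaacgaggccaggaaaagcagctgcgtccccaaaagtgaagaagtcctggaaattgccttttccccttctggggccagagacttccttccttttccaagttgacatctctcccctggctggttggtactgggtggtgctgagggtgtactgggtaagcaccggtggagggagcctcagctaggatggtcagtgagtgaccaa
C5ar2 promoter: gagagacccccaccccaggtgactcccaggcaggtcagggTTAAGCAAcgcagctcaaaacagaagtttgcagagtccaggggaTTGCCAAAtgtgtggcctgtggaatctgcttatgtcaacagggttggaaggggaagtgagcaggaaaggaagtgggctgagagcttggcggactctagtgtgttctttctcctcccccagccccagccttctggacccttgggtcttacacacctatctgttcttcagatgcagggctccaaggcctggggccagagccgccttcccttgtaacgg
The C5ar2 window holds 2 matches, which begin at positions -210 and -166 from the start. The C5ar1 window holds no match to any of the 5 motifs searched, which were the 3 named above with a STAT type (TTCNNNGAA) and a CRE or AP-1 type core (TGACG).

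Neutrophil markers were measured beside the C5a receptors. Of 12 markers 9 were measured, 8 of these had a positive log2FC in T2DM against T1DM MCs and none was called. Ly6g, Camp and Elane were not analysed here. On the linear scale the list summed to 481 and 478 in CT Ly6Chigh, 160 and 148 in CT Ly6Clow, 464 and 159 in T1DM Ly6Chigh and Ly6Clow, and 864 and 311 in T2DM Ly6Chigh and Ly6Clow MCs, with Csf3r, which MCs also express, the gene with the highest value in each. S100a8, an abundant neutrophil transcript, had log2 levels of 1.14 and 1.15 in CT Ly6Chigh, 1.61 and 2.07 in CT Ly6Clow, 2.49 and -0.30 in T1DM Ly6Chigh and Ly6Clow, and 6.90 and 3.88 in T2DM Ly6Chigh and Ly6Clow MCs. The 2 T2DM libraries were thus the highest (log2FC against T1DM 4.30, SE 0.93, limma adjusted p = 0.060). Mpo had a log2FC of 3.11 (SE 0.55, limma adjusted p = 0.028). Other markers went the other way in Ly6Chigh MCs, where Retnlg was at 3.87 in T1DM and -1.55 in T2DM mice, Ltf at 2.71 and 0.42, and Cxcr2 at 2.95 and 2.79. In the same test 6 of 9 NK cell markers were called lower and 4 of 10 classical monocyte markers, Chil3, F13a1, Hp and Mmp8, higher in T2DM MCs. The sort took Ly6G- cells, a gate meant to leave out neutrophils. The part of neutrophil RNA, or of other shifts in cell content, in the C5ar1 and C5ar2 values was not tested.

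Over both subsets together, the log2FC between the diabetic models was nearer to 0 for the other members than for these receptors. C3 had a log2FC of 0.43 in T2DM against T1DM MCs (SE 0.16, 95% interval 0.07 to 0.79, limma adjusted p = 0.26), Cfb of 0.42 (SE 0.30, adjusted p = 0.58) and Cfp of 0.45 (SE 0.33, adjusted p = 0.60). Leaving out 1 library moved C3 between 0.25 and 0.61, Cfb between 0.016 and 0.83, with both ends reached without a T1DM library, and Cfp between -0.17 and 1.06, without the T2DM Ly6Chigh and the T2DM Ly6Clow library. C1qa, C1qb and C1qc were at 0.24, -0.41 and -0.48, with adjusted p from 0.81 to 0.94. These last values join opposite directions within the subsets. In Ly6Chigh MCs the T2DM library was above the T1DM library for all 3 genes, by 0.85 for C1qb and 1.10 for C1qc on the log2 scale and for C1qa by a size that is not interpretable. In Ly6Clow MCs it was below it by differences of -1.35, -1.67 and -2.05. No member was called in this test, in which 0.200% of all genes were called higher and 0.388% lower, and the median log2FC of the members was 0.43 beside 0 for all genes. The test rests on 2 libraries a side, which are the 2 subsets of the same pooled mice. Its spread is one that the CT replicates help to estimate.

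**Figure D3:**
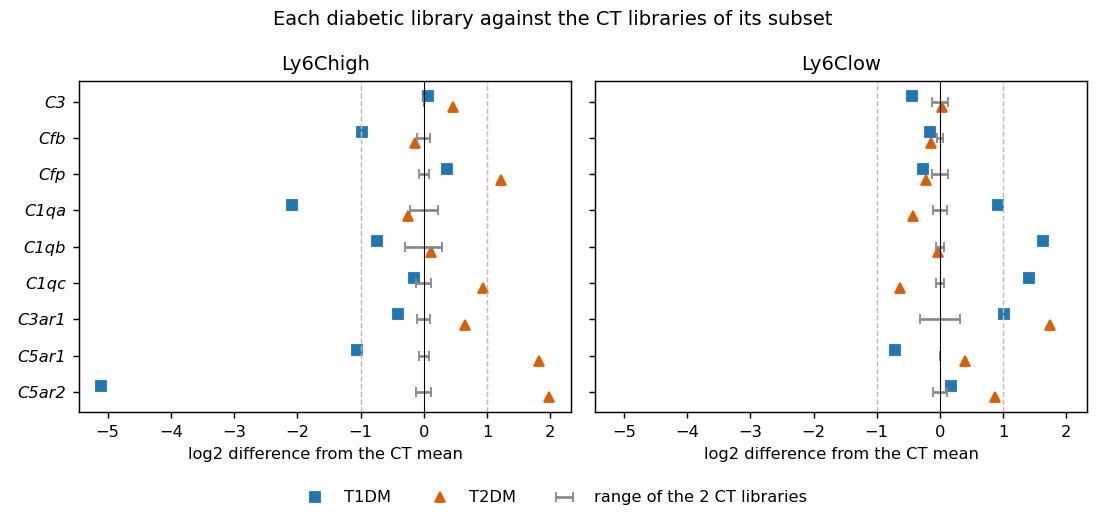
Log2 difference of each T1DM (square) and T2DM (triangle) library from the mean of the 2 CT libraries of its subset, for Ly6Chigh (left) and Ly6Clow MCs (right). Grey bars span the 2 CT libraries and dashed lines mark -1 and 1. In Ly6Chigh MCs C5ar1, C5ar2 and C1qa lie past -1 in T1DM and C5ar1, C5ar2 and Cfp past 1 in T2DM, and in Ly6Clow MCs the points past 1 are C1qb, C1qc and C3ar1 in T1DM and C3ar1 in T2DM.

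Each diabetic library was also set against the CT libraries of its subset. With 1 diabetic library a comparison there is no test, and comparisons within a subset share its CT libraries. For most genes the mean of the 4 diabetic libraries lay close to that of the 4 CT libraries, with an SD over genes of 0.272 for this difference against 0.743 for T2DM minus T1DM, so a gene above the CT level in one model tended to lie below it in the other. Whether the deposited values were adjusted to bring this about is not given in the sources used here. In T1DM Ly6Chigh MCs 3 members were more than 2-fold lower than the CT mean and 0 more than 2-fold higher, where 10.1% of all genes were past 2-fold in either direction. These were C5ar1 with a log2 difference of -1.05, C1qa with -2.08 and C5ar2 with -5.10, and Cfb followed at -0.97. The sizes for C1qa and C5ar2 are not interpretable, since both values lie in the range of repeated lowest values, and with log2(value + 1) they were -0.75, under 2-fold, and -2.76, which left 2 members past 2-fold. In T1DM Ly6Clow MCs 3 members were more than 2-fold higher, C1qb, C1qc and C3ar1, the last with a log2 difference of 1.01, where 8.81% of all genes were past 2-fold. The 2 CT libraries of a subset themselves differed more than 2-fold in 13.8% of genes in Ly6Chigh and 10.0% in Ly6Clow MCs, while no member did, the widest gap being that of C3ar1 in Ly6Clow MCs.

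In T2DM Ly6Chigh MCs 3 members were more than 2-fold higher than the CT mean, C5ar1 (log2 difference 1.82, 3.53-fold), C5ar2 (1.98, 3.94-fold) and Cfp (1.22, 2.32-fold), where 13.8% of all genes were past 2-fold. C3 was at 10.83 there, 1.38-fold above the CT mean and above both CT libraries. In T2DM Ly6Clow MCs C3ar1 was 3.33-fold higher (log2 difference 1.73), the 1 member past 2-fold, where 10.8% of all genes were. C3 in that library lay between the 2 CT libraries.

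Within the diabetic mice, C3 and Cfb were again higher in Ly6Chigh MCs. In T1DM mice C3 was 11.4-fold and Cfb 3.87-fold higher, while C1qa, C1qb, C1qc and C5ar2 were more than 2-fold lower, so that 6 of 9 members were past 2-fold where 27.9% of all genes were. In T2DM mice C3 was 10.8-fold, Cfb 6.85-fold, Cfp 3.26-fold, C5ar2 2.63-fold and C5ar1 2.26-fold higher, 5 of 9 members where 29.1% of all genes were past 2-fold. The test of whether the subset difference itself differed between diabetic and CT mice called 0 genes, or 0% of the table (1084 genes had an unadjusted p under 0.05 by limma). Among the members the nearest to the limit was Cfp, with a difference of 1.04 between the log2FC in diabetic and CT mice (SE 0.38, 95% interval 0.15 to 1.93, limma adjusted p = 0.72), and C3 had 0.47 (SE 0.28, 95% interval -0.18 to 1.11, limma adjusted p = 0.85). Leaving out 1 library gave 0.62 to 1.47 for Cfp and 0.23 to 0.70 for C3.

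The rest of the complement system was read from lists of 58 genes by role, of which 40 were measured, 31 of them besides the 9 members. Over mouse groups 5 of these 31 were called higher and 3 lower in Ly6Chigh MCs, and 23 were not called, where 5.37% of all genes were called higher and 6.76% lower. The median log2FC of the 31 was -0.27, beside -0.08 for all genes. In CT MCs 2 were called higher, Cd93 and Lrp1, and 1 lower, Cd55.

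In the classical pathway list, 1 of 7 measured genes was called. C1ra, the first protease of the C1 complex, had log2 levels of 1.74 and 1.92 in CT Ly6Chigh and -1.65 and 0.52 in CT Ly6Clow MCs, 1.20 and -0.99 in T1DM, and 3.00 and -0.15 in T2DM Ly6Chigh and Ly6Clow MCs. Every Ly6Chigh library was above every Ly6Clow library, with a log2FC of 2.53 over mouse groups (SE 0.50, limma adjusted p = 0.0045), which was 1.51 with log2(value + 1). The lowest CT Ly6Clow value lies in the CT range of repeated lowest values. C1ra shares 59.6% of its 31-base sequences with other genes, most with C1rb, so reads may be split. In 7 of the 8 fits that left out 1 library C1ra was not called (log2FC 2.12 to 2.64, adjusted p up to 0.027), nor was it without the variance trend (0.014). C2, the protease that pairs with C4b, had a log2FC of -1.02 that did not pass (SE 0.27, limma adjusted p = 0.018). C2 shares 44.4% of its 31-base sequences with other genes, most with Gm20547, so reads may be split as for Cfb.

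In the lectin pathway list, Fcnb (ficolin B, a myeloid pattern recognition protein) was 1 of 5 measured genes called. It had log2 levels of 2.25 and 1.38 in CT Ly6Chigh and -1.76 and -0.77 in CT Ly6Clow MCs, 0.72 and -1.06 in T1DM, and 3.61 and -2.30 in T2DM Ly6Chigh and Ly6Clow MCs. The subsets did not overlap (log2FC over mouse groups 3.46, SE 0.65, limma adjusted p = 0.0035). The CT and T2DM Ly6Clow values lie in the ranges of repeated lowest values given above for CT and for diabetic libraries. The size is therefore not interpretable (1.91 with log2(value + 1)). The call was lost without CT Ly6Chigh replicate 1, CT Ly6Clow replicate 1 or the T2DM Ly6Chigh library (2.65 to 3.36, adjusted p up to 0.014) and without the variance trend (0.015). None of the 3 measured terminal pathway genes, Hc (C5), C6 and C8a, was called between the subsets or the diabetic models. Their highest log2 level in any library was 2.19, that of Hc in T2DM Ly6Clow MCs. For T2DM against T1DM the log2FC was 3.83 for Hc, -0.29 for C6 and 0.35 for C8a. The T1DM values of Hc, -2.58 and -2.22, lie in the diabetic range of repeated lowest values, so its size is not interpretable.

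Among 13 measured receptors and binding proteins, Cd93, Itgam and Lrp1 were called higher and Cr2 and Itgax lower in Ly6Chigh MCs over mouse groups. Cd93, a transmembrane glycoprotein first described as a C1q receptor, had log2 levels of 8.33 and 8.32 in CT Ly6Chigh and 4.82 and 4.96 in CT Ly6Clow MCs, 8.40 and 4.67 in T1DM, and 9.21 and 5.18 in T2DM Ly6Chigh and Ly6Clow MCs. It was 12.6-fold higher in Ly6Chigh MCs (log2FC 3.66, SE 0.12, limma adjusted p = 6.0e-07). Lrp1, an endocytic receptor that takes up C1q-coated material with calreticulin, was 3.02-fold higher (log2FC 1.60, SE 0.08, limma adjusted p = 2.8e-06). Itgam encodes CD11b, the alpha chain of complement receptor 3 and the antigen on which all cells were gated, and had a log2FC of 1.03 (SE 0.09, limma adjusted p = 7.1e-05), close to the 2-fold limit, and it was under that limit without either T2DM library (0.92) and after quantile normalization. It shares 68.3% of its 31-base sequences with other annotated genes.

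Itgax, the alpha chain of complement receptor 4, had log2 levels of 3.25 to 5.33 in Ly6Chigh and 6.58 to 7.71 in Ly6Clow libraries, with a log2FC of -2.53 (SE 0.26, limma adjusted p = 1.3e-04). Cr2 (CD21), which B cells carry and which is also in the B cell marker list, was at 1.66 to 3.29 in Ly6Chigh and 4.76 to 5.64 in Ly6Clow libraries (log2FC -2.55, SE 0.33, limma adjusted p = 4.7e-04). Neither pair of ranges overlapped. The B cell list moved the same way, with all 12 genes called, and its part in the Cr2 difference was not tested. Of 8 measured dendritic cell markers 2, Ccr7 and Zbtb46, were called lower in Ly6Chigh MCs over mouse groups and 2 had a positive log2FC. The median of that list was -1.16, and the part of dendritic cell RNA in the Itgax difference was not tested.

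Among 9 measured regulators, Cd55 was called lower in Ly6Chigh MCs and none higher. Cd55 (decay-accelerating factor), which takes apart C3 convertases on the cell's own membrane, had log2 levels of 3.63 and 3.64 in CT Ly6Chigh and 7.67 and 7.62 in CT Ly6Clow MCs, 4.30 and 8.08 in T1DM, and 2.99 and 8.11 in T2DM Ly6Chigh and Ly6Clow MCs. It was 18.8-fold lower in Ly6Chigh MCs over mouse groups (log2FC -4.23, SE 0.20, limma adjusted p = 2.5e-06), in the opposite direction to C3 and Cfb. Cd46, Cd59a and Cd59b, other membrane regulators, were not called, with log2FC of -0.14, -0.26 and -0.09. Cd55b was not called either, with a log2FC of -1.67. Its CT Ly6Chigh values of -1.27 lie in the CT range of repeated lowest values. All 12 B cell markers were called lower in the same test, with a median log2FC of -3.99. The part of B cell RNA in the Cd55 difference was not tested.

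Of the 31 complement genes outside the members, 2 were called between the diabetic models, 1 higher and 1 lower in T2DM MCs, where 0.200% of all genes were called higher and 0.388% lower. Colec12, a scavenger receptor with a C-type lectin domain, was at 3.82 and 3.58 in T1DM and 7.21 and 5.98 in T2DM Ly6Chigh and Ly6Clow MCs, against 4.30 to 4.89 in the 4 CT libraries, and was 7.46-fold higher in T2DM than in T1DM MCs (log2FC 2.90, SE 0.31, limma adjusted p = 0.0027). Clu (clusterin), a fluid-phase inhibitor of the terminal complex that platelets also carry, was at 6.12 and 5.84 in T1DM and 4.33 and 4.20 in T2DM Ly6Chigh and Ly6Clow MCs, 3.29-fold lower in T2DM MCs (log2FC -1.72, SE 0.22, limma adjusted p = 0.0075). The 2 models did not overlap in either gene, but the 2 libraries of each model came from the same pooled mice. Leaving out 1 of the 8 libraries ended the call of Colec12 in 3 fits (both T1DM libraries and T2DM Ly6Chigh, adjusted p up to 0.056) and of Clu in 7 (all but CT Ly6Chigh replicate 2, up to 0.11). Both calls were also lost without the variance trend (adjusted p 0.039 for Colec12 and 0.063 for Clu) and without the CT libraries (0.28 for both).

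Platelet and red cell markers were measured beside Clu. All 6 platelet markers had a negative log2FC in T2DM against T1DM MCs and Ppbp was called, at -2.31 (SE 0.19, limma adjusted p = 6.4e-04). On the linear scale the platelet list summed to 748 and 807 in T1DM and 202 and 236 in T2DM Ly6Chigh and Ly6Clow MCs, and to between 348 and 461 in the CT libraries, with Ppbp the gene with the highest value in each. All 6 erythroid markers also had a negative log2FC, with Hba-a2 and Hbb-bt called. The part of platelet RNA in the Clu difference was not tested.

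**Figure D4:**
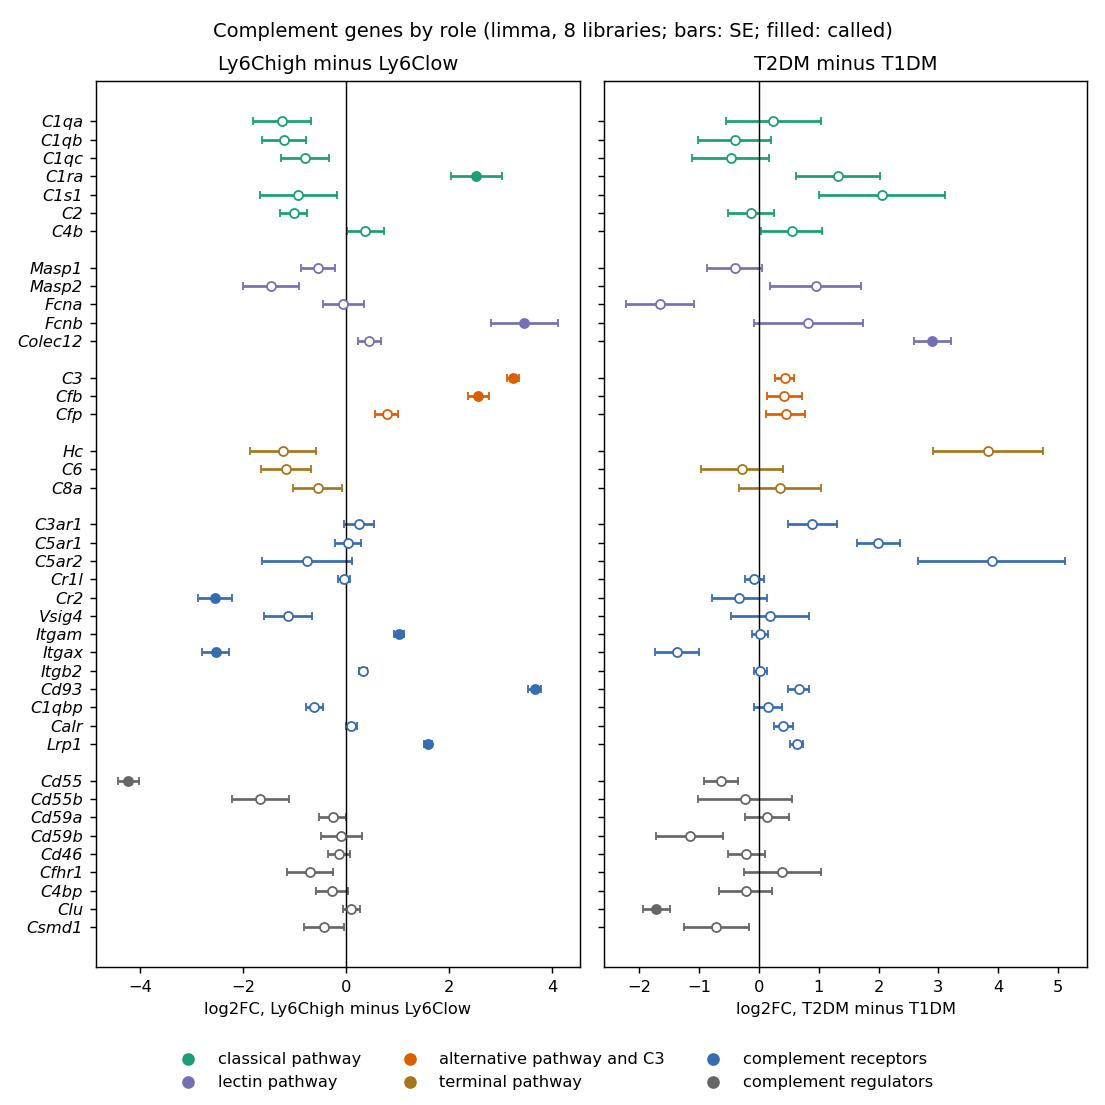
Log2FC with SE of the 40 measured complement genes, coloured by role, for Ly6Chigh against Ly6Clow MCs (left) and T2DM against T1DM MCs (right), from the limma fit of 8 libraries. Filled points are called genes. On the left C3, Cfb, Cd93, C1ra, Fcnb, Lrp1 and Itgam lie to the right and Cd55, Cr2 and Itgax to the left, and on the right the filled points are Colec12 above 0 and Clu below it.

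The genes whose pattern over the 8 libraries lay nearest to each member were found by the root mean square (RMS) difference of centred log2 levels, among genes with a mean log2 level of at least 1. For C3 these were Tgfbi (RMS 0.20), an extracellular matrix protein gene of MCs and macrophages, Arhgef37 (0.22) and Ethe1 (0.24). For Cfb the nearest were Aif1 (0.28), which encodes IBA1, a calcium-binding protein of MCs and macrophages, Ms4a6d (0.29) and Ninj1 (0.31), and for Cfp they were Castor2 (0.14), Creg2 (0.14) and Cisd1 (0.17).

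For C1qb the nearest genes were Rpap1 (0.34), Ears2 (0.37) and Zfp113 (0.37), for C1qa Gk (0.33), Rai14 (0.36) and Angel1 (0.39), and for C1qc Cd28 (0.25), Syt15 (0.28) and Rtel1 (0.31). No C1q gene was among the 3 nearest of another, and C1qa, with a mean log2 level under 1, was not a candidate. For C3ar1 they were Gatm (0.20), Slc35d2 (0.27) and Tysnd1 (0.32). For C5ar1 they were Glo1 (0.30), the glyoxalase that clears methylglyoxal, Dlg3 (0.30) and Ppm1m (0.32). For C5ar2 they were Gm4366 (0.29), Gm49450 (0.74) and Rpl17-ps10 (0.86), which share 88.3% to 100% of their 31-base sequences with other genes, so that reads can be assigned among copies. These distances over 8 libraries of 2 subsets are a description of likeness.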

How the data were processed

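RNA of sorted MC subsets was sequenced, and the authors made gene values from the reads with Kallisto (0.45) and, working in R (3.6.1), with the package tximport (1.12.3). The processing notes name mm10. The values the authors deposited are log2 expression, from -4.05 to 15.64. How they were scaled between libraries, and whether CT and diabetic libraries were adjusted, is not given in the sources used here. The study's methods give 1 read total for all samples, but the values hold no counts, so the depth of each library could not be read from them. Converted to the linear scale they sum to between 838696 and 1090019 a library.

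Tests used limma (3.58.1; lmFit, eBayes with trend) in R 4.3.3 on the deposited values of all 16486 entries, adjusted over all of them, and were tested on simulated data. CT subsets were fitted on 4 libraries, and the pooled subset and T2DM against T1DM tests on 8, with mouse group and subset in the model. Python 3.11.15 made tables and figures. Shared 31-base sequences and positions came from GENCODE M21 transcripts, and promoters from RefSeq (GRCm38.p6, 7 of 9 genes). The genes that could be named were the members, the complement and cell type lists, and the 3 nearest genes of each member. A gene of the regulator list is not reported here. Members and lists were chosen with earlier results of these data known. Alternatives were a low-value filter (12527 genes), log2(value + 1), quantile normalization, no trend, an adjusted p limit of 0.05, a replicate block and leaving out libraries.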

Additional observations from a re-analysis of the deposited data

Results flagged for a closer look

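No member was called between the 2 diabetic models, and 2 other complement genes were. Over subsets, T2DM against T1DM MCs had a log2FC of 2.90 for Colec12 and -1.72 for Clu, both called by limma. The 2 libraries of each model came from the same pooled mice. Without the variance trend (adjusted p 0.039 and 0.063) or without the CT libraries (0.28 for both) neither was called, and leaving out 1 of the 8 libraries ended the call of Colec12 in 3 fits and of Clu in 7, as the replicate block did for Clu. C5ar1 had both T1DM libraries below and both T2DM libraries above the CT libraries of their subset, with a log2FC of 1.99 between the models that did not pass the adjusted p limit of 0.01. The mean of the diabetic libraries lay close to the CT mean for most genes, so values on opposite sides of CT are not independent of each other.

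In C1qc, C5ar1 and C5ar2 the difference of Ly6Chigh minus Ly6Clow MCs had opposite signs in the 2 models. It was -2.37 in T1DM and 0.78 in T2DM mice for C1qc, -0.58 and 1.18 for C5ar1, and -4.99 and 1.39 for C5ar2, on the log2 scale. The -4.99 of C5ar2 rests on a T1DM Ly6Chigh value in the range of repeated lowest values and has no interpretable size. With log2(value + 1) it was -2.67. Among genes with a mean log2 level under 2, as that of C1qc, CT replicates differed with an SD of 1.11 in Ly6Chigh and 0.979 in Ly6Clow MCs, more than its T2DM difference. Each of these rests on 1 library a side, and the difference between the models was not tested. The share of all genes with opposite signs was not determined, so the number of such members is not read as a result.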

How the results depend on the processing

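In the CT subset test, 581 genes and 2 members (C3 and Cfb) were called. The low-value filter gave 1089 genes and an adjusted p limit of 0.05 gave 1936. eBayes without the trend, the replicate block, and leaving out any 1 CT library (range 0 to 0) gave 0 genes and 0 members. The replicate numbers did not pair the samples (correlation of deviations 0.0089), and with 2 numbers the block leaves 1 residual degree of freedom. Over mouse groups, leaving out the CT libraries gave 0 genes and 0 members, again with 1 residual degree of freedom. Between T2DM and T1DM MCs, 97 genes and 0 members were called. eBayes without the trend gave 26 genes, the adjusted p limit of 0.05 gave 253 and 1 member (C5ar1), the replicate block 62, leaving out the CT libraries 0, and leaving out 1 library 24 to 146 genes and 0 to 1 members. For the subset difference in diabetic against CT mice, the limit of 0.05 gave 3 genes. Otherwise the cause of these changes was not tested. The replicate block changed no other call of a member and ended that of Clu between the models.

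Among values that were not called, several changed sign. Quantile normalization gave 0.084 for C1qa in the CT subset test and -0.091 for C5ar1 over mouse groups. Over mouse groups, C3ar1 was -0.38 without the CT libraries and ranged from -0.010 to 0.50 when 1 library was left out, C5ar1 was -0.35 without the T2DM libraries (range -0.35 to 0.23), and C5ar2 was 0.66 without the T1DM libraries (range -1.47 to 0.66). For T2DM against T1DM, log2(value + 1) gave -0.14 for C1qa, and leaving out 1 library gave -1.30 to 1.77 for C1qa, -1.62 to 0.81 for C1qb, -1.53 to 0.58 for C1qc and -0.17 to 1.06 for Cfp. For the subset difference in diabetic against CT mice, C1qc was -0.062 with log2(value + 1) and -0.11 with quantile normalization, and leaving out 1 library gave -1.02 to 1.03 for C1qc, -0.89 to 1.98 for C5ar1, -5.63 to 1.45 for C5ar2 and -0.82 to 0.016 for Cfb.

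Of 509 tested member values under all alternatives, 464 kept their direction and side of the threshold, 14 lost and 3 gained a call, and 28 changed sign. The numbers of members past 2-fold in the comparisons of single diabetic libraries stayed within 1.5 times the reported numbers, but the members changed. When 1 CT library was left out, C5ar1 in T1DM Ly6Chigh (-0.98) and C3ar1 in T1DM Ly6Clow MCs (0.69) could fall under 2-fold. In the same way C1qb (-1.04) and Cfb (-1.07) in T1DM Ly6Chigh, C1qa in T1DM Ly6Clow (1.04) and C1qc in T2DM Ly6Chigh MCs (1.06) could pass it. The depth of each library could not be read from the values, and each diabetic group has 1 library a subset.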
